A study of Mus musculus with 2 samples.

Results

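The genes described here code for the enzymes and carriers that take up glucose, break it down to pyruvate and lactate, lead pyruvate into the mitochondrion and feed the pentose phosphate pathway. They form a list of 35 genes, chosen by name and placed in pathway order, out of 38458 gene columns. A gene was given a ratio between the libraries where it had at least 50 unique molecular identifiers (UMIs, each standing for 1 captured transcript) over both libraries together. This held for 33 of the 35 genes and for 6984 of all columns, which are called tested genes here. Hk1 and Pfkfb3 fell below that minimum and are given by their UMIs alone.

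Single-cell RNA sequencing had been carried out with inDrops, a droplet method that tags transcripts per cell, on mouse embryonic stem cells (mESCs) of the line DKO741. This is a single Terc-/- line, made from E14 mESCs by replacing both alleles of Terc, the RNA template of telomerase, with a construct that carried a PGK-neo gene. The neo gene was taken out of the allele targeted first with Cre recombinase. Stocks were kept on mouse fibroblast feeders, which were left out for the experiments. PD100 (100 population doublings, labelled as passage 100) were cells taken before they used the alternative lengthening of telomeres (ALT), and PD800 (passage 800) were survivors that used ALT. The comparison asked how expression differed between pre-ALT and post-ALT cells and whether it did so evenly from cell to cell. All cells of both groups lacked Terc, and no cells with telomerase were analysed here. Each time point had 1 library, so no test was made, no replicate error can be given, and time point and library cannot be told apart. In UMIs summed over a library, fewer cells with a transcript and fewer transcripts per cell cannot be told apart either. All intervals in brackets are 95% intervals that cover counting error only.

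The cell filter left 814 PD100 cells with 1826233 UMIs and 900 PD800 cells with 2580963 UMIs. The median cell held 2151 UMIs in PD100 and 2701.5 in PD800, of which a median of 1.23% and 4.42% were mitochondrial. UMIs of all 10 listed stem cell markers were present in both libraries, and the summed level of these markers was higher in PD800 by 0.04 on the log2 scale (0.01 to 0.06). Single stem cell markers ran from -0.98 to 1.51, with a median of -0.18. At least 1.5-fold higher were 2 of the 10 and lower 2, beside 15.2% and 36.6% of all tested genes. Of 17 extraembryonic endoderm markers, 5 or more were detected in 39 PD100 cells and in 0 of 900 PD800 cells, which allows a share of up to 0.333% (3 counts). The 17 markers summed to 1172 CPM (counts of UMIs scaled to a common library total) in PD100 and 160 CPM in PD800, where Gata6, Srgn and Ctsh were at 0. Fibroblast markers summed to 16.4 and 12.8 CPM and trophoblast markers to 79.4 and 23.6 CPM. Of the barcode names, 8 occurred among the cells of both libraries.

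Glycolysis splits a glucose molecule into pyruvate in a chain of cytosolic reactions that yields ATP and NADH. Lactate dehydrogenase can reduce the pyruvate to lactate, or the pyruvate dehydrogenase complex can turn it into acetyl-CoA inside the mitochondrion. The pentose phosphate pathway leaves glycolysis at glucose 6-phosphate. Its oxidative arm makes NADPH and its non-oxidative arm exchanges sugars between ribose 5-phosphate and glycolytic intermediates. Pluripotent stem cells in culture are known for a high glycolytic flux.

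In sum the 35 genes took a slightly lower share of the transcripts in PD800, while single steps differed in opposite directions. Relative to the median of all genes, which was itself lower, the sum was higher, at 0.18 on the log2 scale, so its direction depends on the scaling. A sum weighs genes by their UMIs, which the median does not. Relative to the same median, the sum of all tested genes was at 0.35, above that of the 35 genes. Together the 35 genes held 30822 UMIs in PD100, 1.69% of all UMIs, and 38875 UMIs in PD800, 1.51%. The summed level was 16877 CPM (16689 to 17067) in PD100 and 15062 CPM (14913 to 15213) in PD800, giving a log2 ratio of PD800 over PD100 of -0.16 (-0.19 to -0.14). The glucose transporter Slc2a3, the hexokinase Hk2 and the phosphoglycerate kinase Pgk1 were at least 1.5-fold higher in PD800, 3 of 33 genes or 9.09%, where 15.2% of all tested genes were that much higher. At least 1.5-fold lower were 14 of 33 genes or 42.4%, where 36.6% of all tested genes were that much lower. Both shares were thus near those of all genes, and neither sets these genes apart. At least 2-fold higher were 2 of 33, beside 9.22% of all tested genes, and at least 2-fold lower were 6 of 33, beside 16.9%. By any size, 10 of 33 were higher in PD800, beside 33.4% of all tested genes. Just inside the 1.5-fold limit lay Pgm1 at 1.51-fold lower, and just outside it Pgam1 and Pgd, each at 1.48-fold lower.

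All genes tested had a median log2 ratio of -0.34, and the 33 genes had a median of -0.53 (-0.75 to -0.04). Relative to the median of all genes, 8 of the 33 were at least 1.5-fold higher, where 24.5% of all tested genes were, and 7 were at least 1.5-fold lower, where 20% were. The 8 were Slc2a1, Slc2a3, Hk2, Gpi1, Aldoa, Gapdh, Pgk1 and Mpc1. The 7 were Pfkm, Aldoc, Pdhb, Dld, G6pdx, Tkt and Rpia. At 2-fold relative to that median, 3 were higher and 5 lower, beside 13.9% and 7.79% of all tested genes. Of the 33 genes, 15 lay above the median, above which 50% of all tested genes lie by construction.

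**Figure D1:**
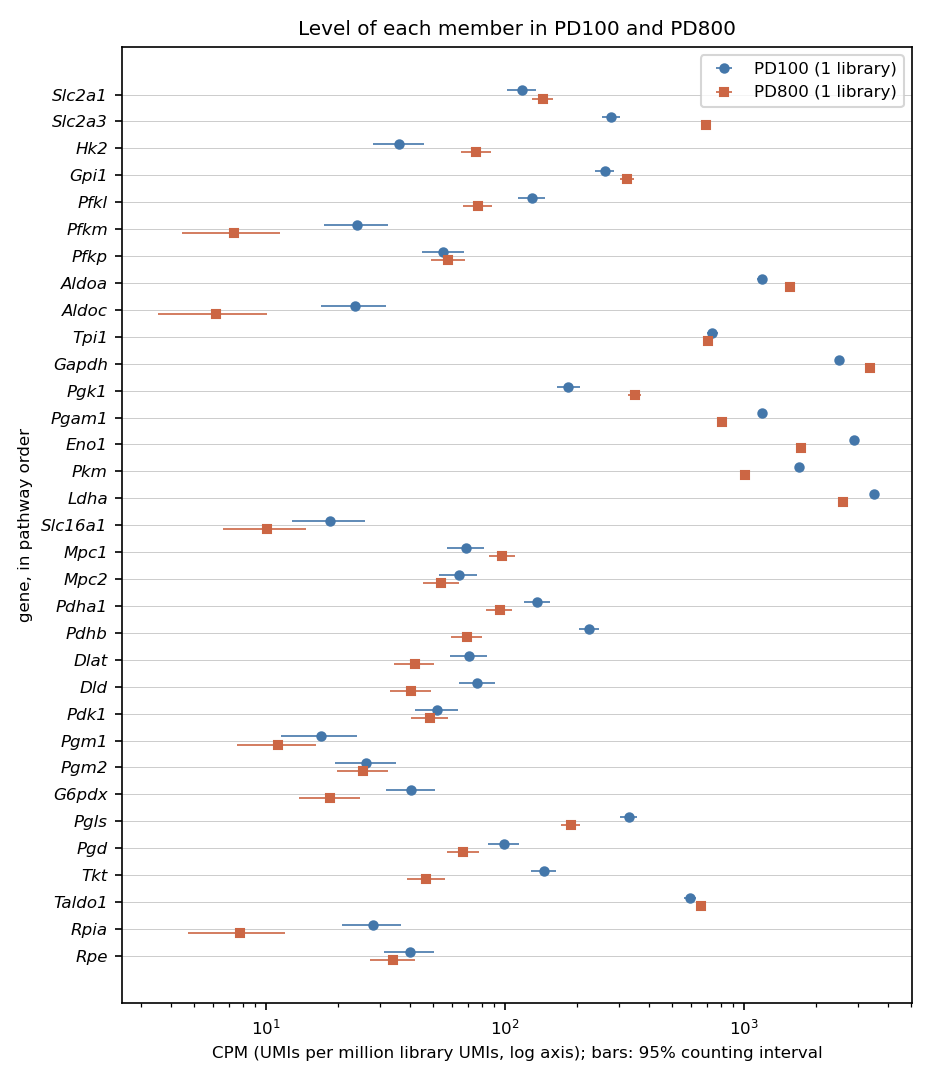
Level of each of the 33 genes in CPM on a log axis, with PD100 as circles, PD800 as squares and bars for the 95% counting interval, from 1 library each. The highest levels in PD100 were those of Ldha (3493 CPM), Eno1 (2907 CPM) and Gapdh (2499 CPM), and the marks of PD100 and PD800 lie far apart for Slc2a3, Hk2, Pdhb, Tkt and Rpia.

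The windows before the start of transcription are shown next, since several glycolytic genes are textbook targets of the hypoxia-inducible factors. The response element of these factors has ACGTG or GCGTG as its core, of which only ACGTG was searched. Each window covers the 250 bases before a RefSeq start on GRCm38.p6 and is written 5′ to 3′ on the strand of the gene, with ACGTG on either strand in capitals. Where ACGTG on both strands overlaps, as CACGTG, it is 1 run. Hk2 lies on the minus strand at chr6:82774455-82774704, Pgk1 on the plus strand at chrX:106186850-106187099, and Ldha, by the first of its listed starts, on the plus strand at chr7:46845554-46845803.
Hk2: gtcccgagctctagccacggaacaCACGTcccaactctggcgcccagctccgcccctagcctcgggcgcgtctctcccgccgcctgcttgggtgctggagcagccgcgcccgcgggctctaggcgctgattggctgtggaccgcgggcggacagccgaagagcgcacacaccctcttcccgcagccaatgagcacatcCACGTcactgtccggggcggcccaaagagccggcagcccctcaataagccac
Pgk1: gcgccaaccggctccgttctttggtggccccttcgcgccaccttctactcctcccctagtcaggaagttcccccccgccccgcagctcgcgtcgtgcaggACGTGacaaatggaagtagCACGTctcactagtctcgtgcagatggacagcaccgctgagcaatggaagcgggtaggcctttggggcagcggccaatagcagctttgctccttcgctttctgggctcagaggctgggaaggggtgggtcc
Ldha: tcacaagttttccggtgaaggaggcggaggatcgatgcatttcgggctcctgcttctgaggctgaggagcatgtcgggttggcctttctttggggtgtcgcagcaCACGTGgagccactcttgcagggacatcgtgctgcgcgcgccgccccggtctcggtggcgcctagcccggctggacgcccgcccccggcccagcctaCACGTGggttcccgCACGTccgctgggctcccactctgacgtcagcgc

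These windows held 2 runs for Hk2 and 2 for Pgk1, which were higher in PD800, and 3 for Ldha, which was lower. The other listed start of Ldha, with its window at chr7:46846832-46847081, had 0 runs. The next windows belong to the genes of pyruvate entry and of the pentose phosphate pathway that were over 3-fold lower in PD800, Pdhb on the minus strand at chr14:8172993-8173242, Tkt on the plus strand at chr14:30548881-30549130 and Rpia on the minus strand at chr6:70792176-70792425.
Pdhb: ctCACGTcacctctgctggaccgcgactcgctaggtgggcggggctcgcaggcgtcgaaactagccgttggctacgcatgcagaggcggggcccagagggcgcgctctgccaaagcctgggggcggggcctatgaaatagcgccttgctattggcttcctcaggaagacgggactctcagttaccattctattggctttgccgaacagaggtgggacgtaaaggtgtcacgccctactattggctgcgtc
Tkt: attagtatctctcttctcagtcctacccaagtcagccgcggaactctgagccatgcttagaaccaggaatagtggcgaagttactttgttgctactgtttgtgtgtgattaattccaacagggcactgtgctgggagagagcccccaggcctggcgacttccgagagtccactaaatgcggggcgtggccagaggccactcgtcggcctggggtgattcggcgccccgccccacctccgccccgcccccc
Rpia: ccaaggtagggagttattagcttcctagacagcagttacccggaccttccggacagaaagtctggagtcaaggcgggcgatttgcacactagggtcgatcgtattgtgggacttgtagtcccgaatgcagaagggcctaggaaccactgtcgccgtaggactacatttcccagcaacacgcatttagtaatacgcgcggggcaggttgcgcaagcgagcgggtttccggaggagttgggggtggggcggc

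Pdhb had 1 run of ACGTG and Tkt and Rpia had 0. Since GCGTG was not counted, 0 runs does not mean that a window lacked every form of the core. Windows were matched for 34 of the 35 genes, all but Slc2a3, and 13 of the 34 (38.2%) held the motif ACGTG in at least 1 window. Of all genes in the RefSeq table, 18.5% did. The 12 tested genes with the motif had a median log2 ratio of -0.49, from -1.71 for Pfkm to 1.07 for Hk2. The 20 tested genes without it had a median of -0.55, from -1.93 for Aldoc to 0.51 for Mpc1. The ranges with and without the motif overlapped.

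Glucose enters these cells through facilitative transporters, and both of those listed had more transcripts in PD800, as had 33.4% of all tested genes. Slc2a3, a transporter of high affinity that is typical of early embryonic cells and neurons, had 507 UMIs in PD100 and 1799 in PD800. Its level was 278 CPM (254 to 303) in PD100 and 697 CPM (665 to 730) in PD800, giving a log2 ratio of 1.33 (1.19 to 1.47), or 2.51-fold higher. Slc2a1, the widely expressed transporter, had 215 and 372 UMIs, giving a log2 ratio of 0.29 (0.05 to 0.54). Slc2a3 supplied 70.2% (66.7 to 73.5) of the UMIs of the pair in PD100 and 82.9% (81.2 to 84.4) in PD800. After each cell had been thinned at random to 1000 UMIs, a Slc2a3 UMI was found in 19.2% (16.5 to 22) of PD100 cells and in 47.4% (44.1 to 50.8) of those of PD800. In cells as deposited the shares were 32.9% and 75.9%. A background share could not be given, for want of cells that should lack the gene.

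The upper part of glycolysis traps glucose, rearranges it and splits it into triose phosphates. Hk2, the inducible hexokinase that binds to mitochondria, had 66 UMIs in PD100 and 196 in PD800, giving a log2 ratio of 1.07 (0.66 to 1.5). Hk1, the housekeeping hexokinase, had 21 and 14 UMIs, so that Hk2 supplied 75.9% (65.5 to 84.4) of the hexokinase UMIs in PD100 and 93.3% (89.1 to 96.3) in PD800. Gpi1, which turns glucose 6-phosphate into fructose 6-phosphate, had 477 and 841 UMIs and a log2 ratio of 0.32 (0.16 to 0.48).

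Phosphofructokinase commits the sugar to glycolysis, and its 3 subunit genes did not move together. Pfkl, the liver type, had 237 UMIs in PD100 and 199 in PD800, giving a log2 ratio of -0.75 (-1.03 to -0.47). Pfkm, the muscle type, had 44 and 19 UMIs, giving a log2 ratio of -1.71 (-2.57 to -0.90). Pfkp, the platelet type, had 101 and 149 UMIs, and its log2 ratio of 0.06 (-0.31 to 0.44) had an interval that included 0. The family sum was lower by a log2 ratio of -0.56 (-0.77 to -0.35). The share of Pfkp in the family rose from 26.4% (22.1 to 31.2) to 40.6% (35.5 to 45.8), while Pfkm went from 11.5% to 5.18%. Pfkfb3, which makes the activator fructose 2,6-bisphosphate, had only 2 and 10 UMIs.

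Aldolase splits the sugar into triose phosphates, and Aldoa made up almost all of it. Aldoa had 2167 UMIs in PD100 and 4047 in PD800, giving a log2 ratio of 0.40 (0.33 to 0.48). Aldoc, the brain type, had 43 and 16 UMIs, giving a log2 ratio of -1.93 (-2.85 to -1.07), the lowest of the 33 genes. Of the aldolase UMIs it supplied 1.95% (1.41 to 2.61) in PD100 against 0.394% (0.225 to 0.639) in PD800. Tpi1, which interconverts the triose phosphates, had 1349 and 1821 UMIs and levels of 739 and 706 CPM. The log2 ratio of Tpi1, -0.07 (-0.17 to 0.04), had an interval that included 0.

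**Figure D2:**
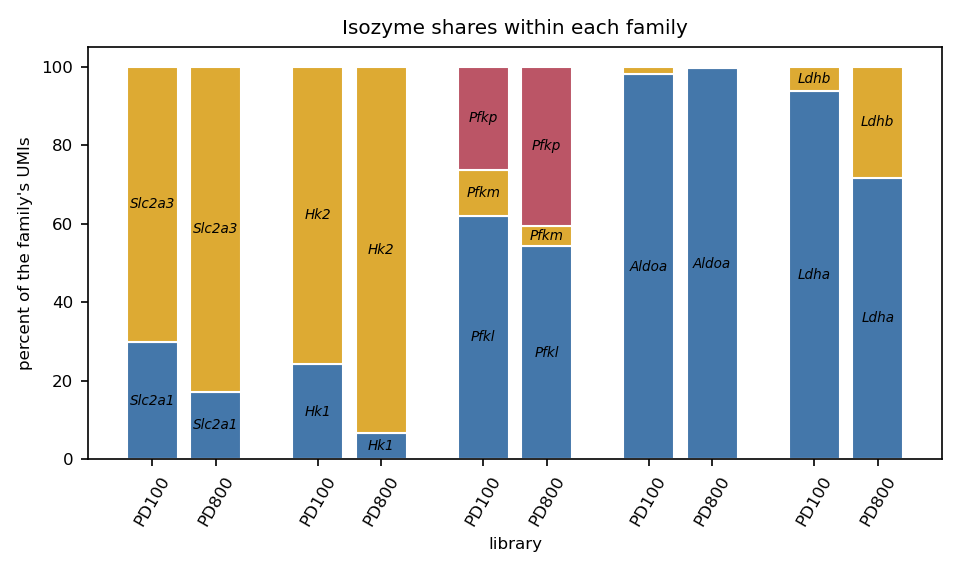
Share of each isozyme gene in the UMIs of its family, in percent, stacked to 100% for PD100 and PD800 (1 library each). Slc2a3, Hk2, Pfkp and Ldhb took a larger part of their families in PD800, with Ldhb going from 6.19% to 28.4%.

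In the lower part, where ATP and NADH are gained, the first enzymes were higher and the last ones lower. Gapdh, which oxidises glyceraldehyde 3-phosphate, had 4564 UMIs in PD100 and 8693 in PD800, or 2499 CPM (2427 to 2573) and 3368 CPM (3298 to 3440). The log2 ratio was 0.43 (0.38 to 0.48). Pgk1, which makes the first ATP, had 337 and 902 UMIs, or 185 and 349 CPM, giving a log2 ratio of 0.92 (0.74 to 1.11).

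The 3 enzymes that follow Pgk1 were lower. Pgam1, the phosphoglycerate mutase, had 2186 and 2094 UMIs and a log2 ratio of -0.56 (-0.65 to -0.47). Eno1, the enolase, had 5308 UMIs in PD100 and 4458 in PD800, 2907 CPM (2829 to 2986) against 1727 CPM (1677 to 1779), giving a log2 ratio of -0.75 (-0.81 to -0.69). Pkm, the pyruvate kinase, had 3104 and 2623 UMIs and a log2 ratio of -0.74 (-0.82 to -0.67). Relative to the median of all genes, the ratios of Pgam1, Eno1 and Pkm came to -0.22, -0.41 and -0.40. After thinning, an Eno1 UMI was present in 92.0% (89.9 to 93.8) of PD100 cells and 76.6% (73.6 to 79.3) of PD800 cells, and a Gapdh UMI in 90.4% (88.2 to 92.4) and 96.0% (94.5 to 97.2). Without thinning the shares were 97.4% and 95.3% for Eno1 and 97.7% and 99.0% for Gapdh.

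Some of these genes have close copies in the genome, with which reads can be shared. Of the other genes in GENCODE M21, 43 shared at least 50% of their 31-base words with Gapdh transcripts. Of these, Gm3839 had a column of its own, with 2807 UMIs in PD100 and 4063 in PD800. Counted together with Gapdh it gave a log2 ratio of 0.29 (0.25 to 0.33), so the size of the Gapdh difference is uncertain. Eno1b, with 205 and 124 UMIs, left the ratio of Eno1 at -0.77 when added. Pgk1-rs7, with 25 and 50 UMIs, left that of Pgk1 at 0.90. Whether transcripts of the PGK-neo construct were counted under Pgk1 was not tested.

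**Figure D3:**
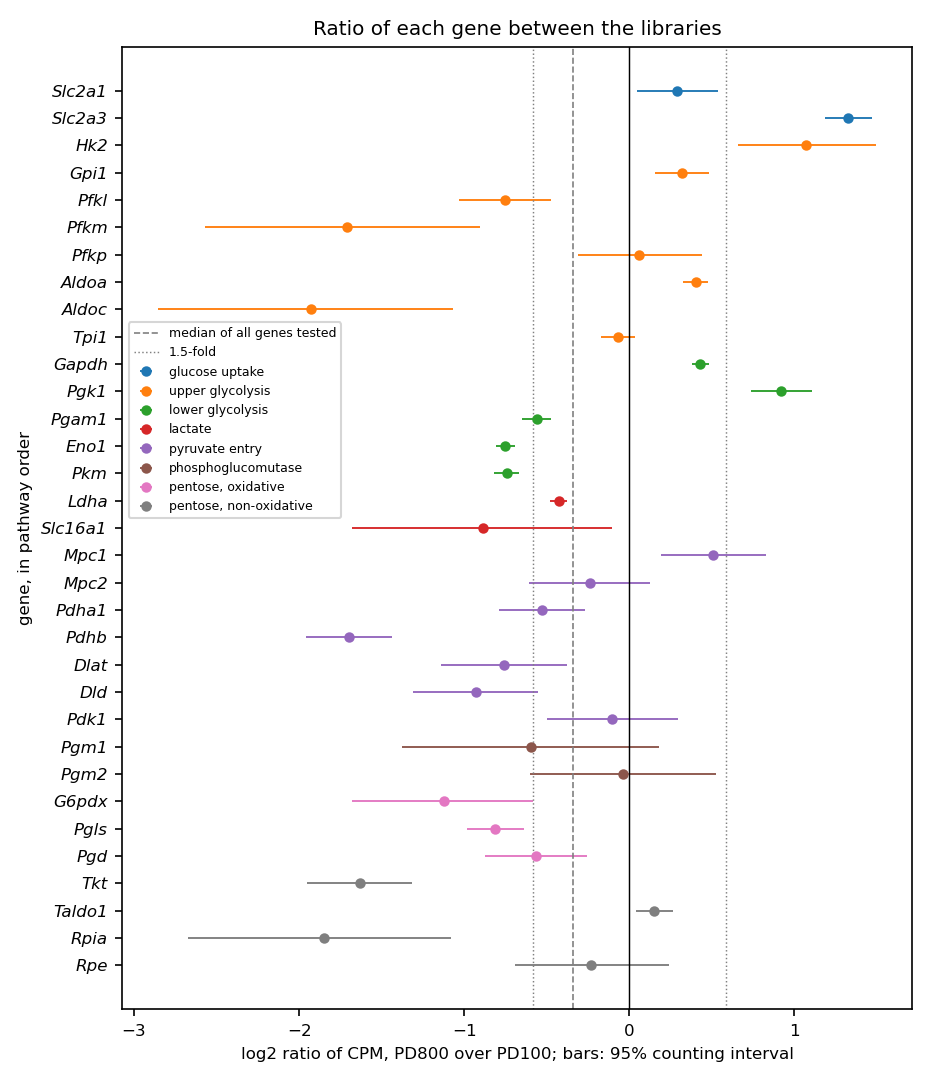
Log2 ratio of CPM, PD800 over PD100, for the 33 genes in pathway order, coloured by the part of the pathway, with bars for the 95% counting interval. Dotted lines mark 1.5-fold and the dashed line the median of all genes tested (-0.34), and from Gapdh and Pgk1 (0.43 and 0.92) to Pgam1, Eno1 and Pkm (-0.56, -0.75 and -0.74) the ratios change sign within the lower part of glycolysis.

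Pyruvate and lactate are interconverted by lactate dehydrogenase. Ldha, whose subunit favours lactate formation, had 6379 UMIs in PD100 and 6702 in PD800, or 3493 CPM (3408 to 3580) and 2597 CPM (2535 to 2660), giving a log2 ratio of -0.43 (-0.48 to -0.38). This was close to the median of all genes, from which it differed by -0.09. Slc16a1, a carrier of lactate and pyruvate across the plasma membrane, had 34 and 26 UMIs, giving a log2 ratio of -0.89 (-1.68 to -0.11).

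Ldhb, whose subunit favours the oxidation of lactate, is not among the 35 genes but had the highest ratio of the other genes of the pathway. It had 421 UMIs in PD100 and 2654 in PD800, or 231 and 1028 CPM, giving a log2 ratio of 2.16 (2.01 to 2.31). A Ldhb UMI was found after thinning in 17.2% (14.7 to 20) of PD100 cells and 59.7% (56.4 to 62.9) of PD800 cells, and in 28.4% and 83.1% without thinning. The family sum of Ldha and Ldhb hardly differed, with 3724 and 3625 CPM and a log2 ratio of -0.04 (-0.08 to 0.01). The part of Ldhb in that sum went from 6.19% (5.63 to 6.79) to 28.4% (27.5 to 29.3). The lactate dehydrogenase pair was taken as a family after its values had been seen. Ldhb lies on chromosome 6, whose 314 tested genes had a median log2 ratio of 0.02, beside -0.34 for all tested genes. Ldhb was not set beside the nearest genes of its chromosome, and the part of copy number in its ratio was not tested.

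Pyruvate enters the mitochondrion through a carrier of 2 subunits. Mpc1 had 125 UMIs in PD100 and 251 in PD800, giving a log2 ratio of 0.51 (0.19 to 0.83), while Mpc2 had 117 and 140 UMIs and a log2 ratio of -0.24 (-0.60 to 0.13). The 4 listed subunits of the pyruvate dehydrogenase complex were lower in PD800, Pdhb by far the most. Of all tested genes, only 33.4% were higher by any size. Pdhx, a binding subunit of the complex that is among the further pathway genes and was looked up after the others had been seen, had 66 and 95 UMIs, at 0.03 (-0.44 to 0.50). Pdhb, the beta subunit of the first enzyme, had 410 UMIs in PD100 and 179 in PD800, or 225 CPM (203 to 247) and 69.4 CPM (59.6 to 80.3). The log2 ratio was -1.69 (-1.96 to -1.44), or 3.24-fold lower.

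Its partner Pdha1, the alpha subunit, had 250 and 245 UMIs and a log2 ratio of -0.53 (-0.79 to -0.27). The interval of Pdhb lay below that of Pdha1, so the transcripts of these subunits differed in proportion between the libraries beyond counting error. Protein was not measured. Dlat, the acetyltransferase, had 129 and 108 UMIs and a log2 ratio of -0.76 (-1.14 to -0.38). Dld, the dehydrogenase shared with other complexes, had 140 and 104 UMIs and a log2 ratio of -0.93 (-1.31 to -0.55). Pdk1, a kinase that switches the complex off, had 95 and 125 UMIs and a log2 ratio of -0.10 (-0.50 to 0.30), whose interval included 0.

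Phosphoglucomutase links glucose 6-phosphate to glycogen and to nucleotide sugars. The columns named Pgm1 and Pgm2 had 31 and 29 UMIs and 48 and 66 UMIs. The log2 ratios were -0.60 (-1.38 to 0.18) for Pgm1 and -0.04 (-0.60 to 0.53) for Pgm2, and both intervals included 0. These symbols have been exchanged between annotation releases, and the release behind the columns was not given in the sources used here.

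In the oxidative arm of the pentose phosphate pathway each of the 3 genes was lower in PD800, where only 33.4% of all tested genes were higher. G6pdx, which starts the arm and makes the first NADPH, had 74 UMIs in PD100 and 48 in PD800, giving a log2 ratio of -1.12 (-1.68 to -0.58). Pgls, the lactonase, had 603 and 486 UMIs and a log2 ratio of -0.81 (-0.99 to -0.64). Pgd, which makes the other NADPH, had 181 and 173 UMIs and a log2 ratio of -0.56 (-0.87 to -0.26). Summed, the arm was at 470 CPM (439 to 502) in PD100 and 274 CPM (254 to 295) in PD800, giving a log2 ratio of -0.78 (-0.92 to -0.63). Relative to the median of all genes the sum was at -0.44.

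The non-oxidative arm was split. Tkt, the transketolase, had 265 UMIs in PD100 and 121 in PD800, or 145 CPM (128 to 164) and 46.9 CPM (38.9 to 56). Its log2 ratio was -1.63 (-1.95 to -1.31), or 3.10-fold lower. Taldo1, the transaldolase, which works beside it, had 1089 and 1711 UMIs, or 596 and 663 CPM, giving a log2 ratio of 0.15 (0.04 to 0.26).

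Rpia, the isomerase that makes ribose 5-phosphate, had 51 UMIs in PD100 and 20 in PD800, giving a log2 ratio of -1.85 (-2.67 to -1.08). Rpe, the epimerase of the same substrate, had 73 and 88 UMIs and a log2 ratio of -0.23 (-0.69 to 0.24), whose interval included 0. The sum of the arm, to which Taldo1 gave most UMIs, was 809 CPM in PD100 and 752 CPM in PD800. After thinning, a Tkt UMI was found in 12% (9.88 to 14.5) of PD100 cells and 5.22% (3.86 to 6.88) of PD800 cells, and in 24.7% and 11.3% without thinning.

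The UMIs of the 35 genes were also summed per cell after thinning to 1000 UMIs, which left out no cell. Since single genes differed in opposite directions, this sum describes the whole list in each cell and not the spread of any gene over cells. The median cell gave 1.6% of its UMIs to the 35 genes in PD100 and 1.5% in PD800. From the 5th to the 95th percentile the share ran from 0.8% to 2.7% in PD100 and from 0.8% to 2.4% in PD800, and 94.3% of PD800 cells lay within the range of PD100. No cell of either library was without such a UMI. The variance over the mean of the count was 2.06 in PD100 and 1.59 in PD800, and 2.18 and 1.70 with another random seed.

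**Figure D4:**
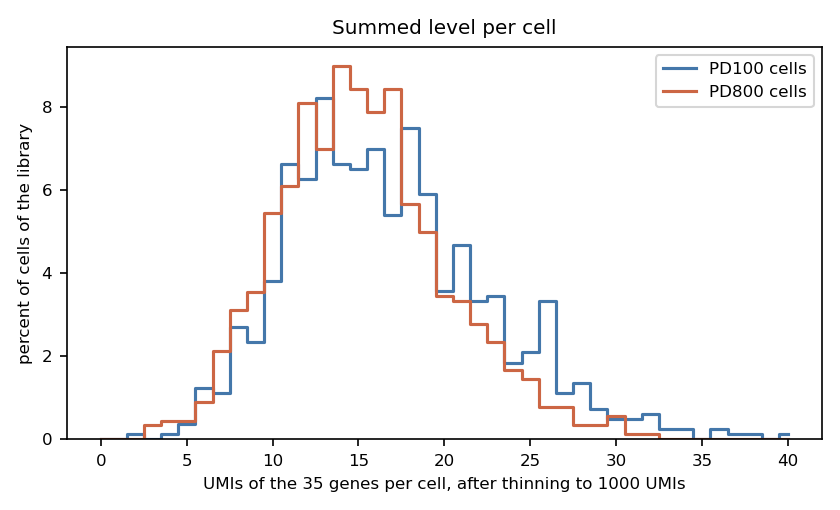
Distribution of the summed UMIs of the 35 genes per cell after thinning each cell to 1000 UMIs, as percent of the cells of each library (814 PD100 cells, 900 PD800 cells). The curves overlap, with medians of 1.6% and 1.5% of the UMIs of a cell, and the curve of PD100 reaches further to the right.

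The 39 PD100 cells with 5 or more endoderm markers differed from the other 775 PD100 cells in these genes. Their sum was 20258 CPM (19348 to 21199) against 16698 CPM (16506 to 16892). They held 104 of the 507 Slc2a3 UMIs of the library, a log2 ratio to the other cells of 2.28 (1.96 to 2.60). Tpi1 was higher in them by 1.19 (0.94 to 1.44), Pfkl by 1.15 (0.49 to 1.75), Tkt by 0.97 (0.32 to 1.57) and Pgls by 0.86 (0.43 to 1.27). Taldo1 (-0.86, -1.42 to -0.34) and Ldhb (-2.47, -4.35 to -1.10) were lower.

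Of the 31 Pgm1 UMIs of PD100, 11 lay in these 39 cells. Without them the log2 ratio between the libraries was -0.04 for Pgm1 (-0.91 to 0.86) and 1.58 for Slc2a3 (1.43 to 1.74). That of Tkt was -1.56 and that of Pfkl -0.66, and of the 32 genes that kept 50 UMIs, 3 were then at least 1.5-fold higher and 13 lower, beside 15.5% and 35.6% of all genes tested without these cells.

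PD800 cells with a higher mitochondrial share had a lower sum. Of the cells, 806 of 814 in PD100 and 58 of 900 in PD800 had at most 3% mitochondrial UMIs. The sum was 17005 CPM (16365 to 17663) in these 58 PD800 cells and 14937 CPM (14783 to 15091) in the other 842. Among cells at or below 3% the sum did not differ between the libraries beyond counting error (log2 ratio 0.01, -0.05 to 0.07), and of the 29 listed genes with 50 UMIs there, 4 were at least 1.5-fold higher and 7 lower. Of all 4942 genes with 50 UMIs in these cells, 15.3% were that much higher and 38.4% that much lower. In the same cells Slc2a3 was at 1.46 (1.16 to 1.75), Pgk1 at 0.97 (0.53 to 1.38), Eno1 at -0.36 (-0.52 to -0.21), Pdhb at -1.55 (-2.52 to -0.73) and Tkt at -2.50 (-4.39 to -1.13). What part the mitochondrial share has in the differences was not tested.

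The study describes changes in copy number between these time points, so each gene was set beside the 20 nearest tested genes of its chromosome, 10 on each side where possible. The medians of these neighbours ran from -1.14 around Pgls to 1.26 around Pgk1. For 14 of the 33 genes the ratio lay above that of the neighbours, and the median difference was -0.15 (-0.34 to 0.13). Pgk1, on chromosome X, was lower than 11 of its 20 neighbours at a log2 ratio of 0.92, and its 10 nearest neighbours had a median of 1.74 and its 40 nearest a median of 0.70. Gapdh and Tpi1, near each other on chromosome 6, had neighbour medians of 0.25 and 0.12.

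Other genes stood apart from their neighbours. Slc2a3, also on chromosome 6, was above 19 of 20 neighbours, whose median was 0.25. Its 10 nearest neighbours had a median of 0.51 and its 40 nearest a median of 0.02. Hk2 was above 18 of 20, with a median of -0.23. Mpc1 was also above 18 of 20, with a median of -0.45. Rpia, Slc16a1 and Pfkm lay below all 20, whose medians were -0.05, 0.51 and -0.89, and Aldoc lay above 1 of 20, with a median of -0.85. Pdhb and Tkt, both on chromosome 14, each lay above 1 of 20, with neighbour medians of -0.69 and -0.78. Copy number itself was not measured in these libraries and its part in the ratios was not tested.

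**Figure D5:**
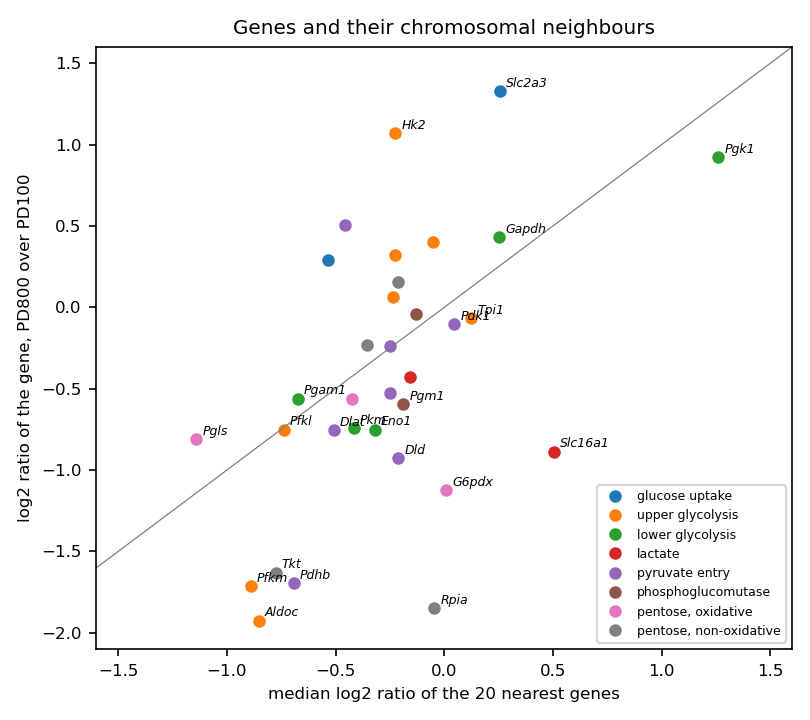
Log2 ratio of each of the 33 genes against the median log2 ratio of the 20 nearest tested genes of its chromosome, coloured by the part of the pathway, with a line where both are equal. Slc2a3 and Hk2 lie above the line, Rpia, Slc16a1, Pdhb and Tkt below it, and Pgk1 lies far to the right, among neighbours with a median of 1.26.

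Further genes of the pathway were taken from lists that hold other isozymes and flanking enzymes. Of 62 such genes 24 were tested, and 3 were at least 1.5-fold higher and 8 lower, beside 15.2% and 36.6% of all tested genes. Set against the median of all genes, 4 were higher and 4 lower, beside 24.5% and 20% of all tested genes. Ranked by the end of the interval nearer to 0, the highest after Ldhb were Me1, the cytosolic malic enzyme (0.63, 0.01 to 1.28), and Slc16a3, a lactate exporter (0.19, 0.00 to 0.38). The remaining gene past 1.5-fold was Prps2, a phosphoribosyl pyrophosphate synthetase, at 0.62 (-0.04 to 1.31), named after its value had been seen. The lowest by the same ranking were Eno3, the muscle enolase (-1.67, -2.09 to -1.26), Pgp, a phosphatase of glycolytic by-products (-1.29, -1.46 to -1.13), and Eno1b (-1.22, -1.56 to -0.90).

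The tricarboxylic acid cycle burns the acetyl-CoA. Of its 16 genes, 1 was at least 1.5-fold higher and 5 lower, beside 15.2% and 36.6% of all tested genes. Their median of -0.31 (-0.64 to -0.08) was close to the -0.34 of all tested genes. Relative to the latter, 1 was higher and 1 lower, beside 24.5% and 20%. Dlst, a subunit of the oxoglutarate dehydrogenase complex, was at 0.63 (0.01 to 1.27), and Ogdh, another subunit of it, at -1.41 (-1.93 to -0.90). Mdh2, the malate dehydrogenase, was at -0.11 (-0.20 to -0.02).

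Of the hypoxia-responsive genes outside glycolysis 11 were tested, of which 0 were at least 1.5-fold higher and 7 lower, beside 15.2% and 36.6% of all tested genes. Relative to the median of all genes 2 were higher and 5 lower, beside 24.5% and 20%. The highest were Higd1a at 0.58 (0.41 to 0.75) and Bnip3 at 0.45 (0.10 to 0.81). The lowest were P4ha2, a collagen hydroxylase, at -3.29 (-4.22 to -2.48) and Ddit4, an inhibitor of mTOR signalling, at -2.52 (-3.33 to -1.78). The median of the tested genes of this list was -0.84 (-2.52 to 0.45) with all cells. It was -0.57 (-1.43 to 0.57) without the 39 cells with endoderm markers. Ratios of single genes of this list, such as P4ha2 and Ddit4, were not computed without those cells.

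Among regulators of the pathway, 1 of 11 was at least 1.5-fold higher and 5 were lower, beside the same 15.2% and 36.6%. Against the median of all genes, 1 was higher and 3 were lower, beside 24.5% and 20% of all tested genes. Myc, which drives many glycolytic genes, had 122 UMIs in PD100 and 41 in PD800, giving a log2 ratio of -2.07 (-2.62 to -1.55). Mycn, its relative in stem cells, had 393 and 250 UMIs, giving a log2 ratio of -1.15 (-1.39 to -0.92). Their partner Max had 196 and 285 UMIs, at 0.04 (-0.23 to 0.31). Hif1a, the oxygen-regulated subunit of the hypoxia-inducible factor, had 45 and 60 UMIs, at -0.08 (-0.67 to 0.51). Esrrb, a nuclear receptor of naive stem cells, had 57 and 230 UMIs, at 1.51 (1.09 to 1.96).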

How the data were processed

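The authors deposited raw counts, 1 table of UMIs by barcode and gene for each library. Reads had been mapped by the inDrops pipeline to transcripts of GRCm38. The annotation release and strand setting are not given in the sources used here. Without them, reads of overlapping or antisense genes cannot be told apart. Barcodes with under 1000 UMIs or over 20% mitochondrial UMIs were left out, the limits that the study states, which here left somewhat more cells in each library than it gives. Doublets were not called, and the 5% of cells with most UMIs were left out in an alternative.

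UMIs were summed per library and divided by its total (CPM). Sums were given exact Poisson, ratios exact conditional and shares exact binomial intervals at 95%. PCR and capture errors are not in them. Medians over genes have order-statistic intervals. With 1 library per time point no test was made, and 1.5-fold was used as a rule of size. Cells were thinned without replacement (seed 1). Gene positions, copies and neighbours came from GENCODE M21, with which 6788 of 6984 tested genes had a single position, and upstream windows from RefSeq.

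The genes, the lists and the rules were chosen with earlier results of these data known. All genes of the list with 50 UMIs were named, and of each further list those with the highest and lowest ratio by the interval end nearer to 0 (3 each for other pathway genes, 2 each for the rest), plus Hif1a, Myc and Mycn. One gene that this rule names is not reported here. Alternatives covered scaling, cell filters, doublets, thinning, minimum UMIs, fold and neighbours. The steps were tested on simulated data. Python 3.11.15, NumPy 2.4.6, SciPy 1.17.1, pandas 2.3.3 and matplotlib 3.10.9 were used.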

Additional observations from a re-analysis of the deposited data

Results flagged for a closer look

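The barcodes left out by the cell filter were not used in the comparison. They held UMIs of the 35 genes at shares close to those of the kept cells, 1.69% in PD100 and 1.51% in PD800. In PD100, 477 such barcodes gave these genes 4154 of 246800 UMIs, or 1.68% (1.63 to 1.74). In PD800, 766 such barcodes gave them 7005 of 458381 UMIs, or 1.53% (1.49 to 1.56). The log2 ratio between them was -0.14 (-0.19 to -0.08), beside -0.16 in the cells that were kept. Whether these barcodes held free RNA or shallow cells was not tested.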

How the results depend on the processing

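No paired analysis was possible because each time point had 1 library. Of the 17 genes that were at least 1.5-fold apart, 15 kept their direction under each of 10 alternatives, and 23 of all 33 genes did so. The exceptions among the 17 were Pfkm and Pgm1, which went to 0.076 (-1.86 to 1.53) and 0.17 (-2.19 to 1.85) in cells with at most 3% mitochondrial UMIs, where 58 PD800 cells remained. The log2 ratio of the sum was 0.18 with median-of-ratios scaling, -0.11 with totals without mitochondrial genes, 0.010 in cells with at most 3% mitochondrial UMIs, -0.14 with cells thinned to 1000 UMIs and -0.30 without Gapdh, the gene with most UMIs, so its sign depends on the scaling. Median-of-ratios scaling, like the ratio to the median of all genes, gave 8 of 33 genes at least 1.5-fold higher and 7 lower. Of all tested genes, 24.49% were that much higher and 19.97% lower under this scaling. Among the listed genes past 1.5-fold, 53.3% were then higher, against 17.6% as reported. The same scaling moved the median of all genes from -0.34 to 0.00. The number of lower genes, 14 of 33 as reported beside 36.6% of all tested genes, also changed. In cells with at most 3% mitochondrial UMIs it was 7 of 29, beside 38.4% of all genes tested there. With thinned cells it was 7 of 26, beside 33.4%. It was 8 with a minimum of 200 UMIs, where fewer genes could pass, and 6 of 33 at 2-fold, beside 16.9%. The median of the tricarboxylic acid cycle genes was 0.032 with median-of-ratios scaling. The median share per PD800 cell was 1.45% with thinning to 2000 UMIs and 1.47% without thinning. The alternatives on further lists and on shared barcode names were chosen after seeing the data. Genes with few UMIs, such as Slc16a1, Pgm1, Aldoc and Pfkm, have wide intervals at this depth.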
